A study of Mus musculus with 6 samples.

Results

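Testis endothelial genes are described here as a set of 10 genes that mark the cells lining blood vessels: Pecam1, Cdh5, Kdr, Tek, Vwf, Esam, Emcn, Flt1, Tie1 and Egfl7. A transcript cluster is a group of array probes combined into 1 value for a transcribed region. The members were chosen by name, as the transcript clusters whose single platform gene symbol is one of these 10 genes. All 10 were measured, each by 1 cluster, out of 19938 genes with such a cluster. Whole testes were taken from mouse pups at postnatal day 15, and total RNA was measured on 6 Affymetrix mouse gene arrays, 3 for control and 3 for knockout. The labels give the genotypes as control and as knockout of a single targeted gene, and they name no strain, no Cre driver and no other allele. In which cells of the knockout testes the targeted gene was deleted is not given in the sources used here. Nor is it stated that each replicate comes from its own animal. The p-values therefore rest on the spread among these RNA samples, part of which may be technical.

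Endothelial cells form the wall of capillaries, arteries and veins and hold on to each other through VE-cadherin (Cdh5), PECAM-1 (Pecam1) and ESAM (Esam). Their growth and survival depend on vascular endothelial growth factor, VEGF, which signals through the receptor tyrosine kinase VEGFR2 (Kdr) and is bound by VEGFR1 (Flt1), often a decoy. Angiopoietins act through the receptor TIE2 (Tek), with TIE1 (Tie1) as its partner, and stabilise the vessel. In the testis, blood vessels run between the seminiferous tubules, beside Leydig cells and macrophages, and do not enter the tubules, where the germ cells lie. The testis is measured here as bulk tissue, so fewer endothelial cells and less RNA per endothelial cell cannot be told apart.

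Promoter sequences are shown for 3 members. Endothelial genes are known to be driven by ETS transcription factors such as ERG and FLI1, which bind around a GGAA core. The windows are the 250 bases before an annotated transcription start (RefSeq, GRCm38.p6), written 5′ to 3′ on the gene's strand. Capitals mark AGGAAG, which extends that core, on either strand, so it can also stand as its reverse complement.
Emcn, chr3:137340828-137341077, plus strand: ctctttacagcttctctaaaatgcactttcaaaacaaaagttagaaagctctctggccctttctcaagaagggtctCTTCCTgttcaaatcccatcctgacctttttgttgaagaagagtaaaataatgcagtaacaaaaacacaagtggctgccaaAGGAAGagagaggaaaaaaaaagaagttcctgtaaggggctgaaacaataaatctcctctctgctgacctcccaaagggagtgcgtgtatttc
Flt1, chr5:147726012-147726261, minus strand: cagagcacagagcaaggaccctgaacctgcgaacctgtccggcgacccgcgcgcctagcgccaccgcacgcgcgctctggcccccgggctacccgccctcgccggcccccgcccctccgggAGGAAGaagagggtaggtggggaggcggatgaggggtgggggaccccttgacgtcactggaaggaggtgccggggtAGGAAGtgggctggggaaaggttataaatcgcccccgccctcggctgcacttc
Kdr, chr5:75978456-75978705, minus strand: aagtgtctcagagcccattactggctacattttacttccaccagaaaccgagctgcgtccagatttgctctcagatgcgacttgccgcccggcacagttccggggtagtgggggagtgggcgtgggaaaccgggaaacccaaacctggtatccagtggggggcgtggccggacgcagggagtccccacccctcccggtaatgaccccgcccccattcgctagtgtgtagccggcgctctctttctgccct
Emcn and Flt1 each held 2 matches and Kdr held 0. Windows were found for 6 of the 10 members (Kdr, Tek, Emcn, Flt1, Tie1 and Egfl7), and 4 of these 6 had at least 1 window with AGGAAG on either strand, against 32.3% of all 27018 genes with such windows. Egfl7, with 3 start sites, had 3, 1 and 0 matches in its 3 windows, and Tie1 had 1. The shorter GGAA, which lies inside AGGAAG, was in the windows of all 6 and of 94.2% of all genes. A match describes the letters only and is not evidence of binding.

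None of the 10 genes passed the test between the genotypes. In limma, a linear model fitted across all 21789 clusters with 1 gene symbol, 0 of the 10 passed an adjusted p (Benjamini-Hochberg) of 0.05, where 0.0138% of all clusters did. At an unadjusted p under 0.05 there was 1 member, Esam, where 10.6% of all clusters were, and in 8 of the 13 other settings there was none. With the arrays centred on their medians the 1 member was Vwf (adjusted p = 0.417, limma) and not Esam (adjusted p = 0.472, limma). The differences, knockout minus control on the log2 scale, ran from -0.13 (Kdr) to 0.077 (Vwf), with 4 members above and 6 below the control mean and a median of -0.013. Over all clusters tested the median was 0.0033, and 51.3% lay above the control mean. The median size of the difference, sign ignored, was 0.037 over the members and 0.053 over all clusters. In 7 of the 10 members the difference was smaller than the pooled SD of the replicates.

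The 95% intervals of the 10 differences, not adjusted for the number of genes, bound what the 6 arrays allow. The lowest bound was -0.38, of Kdr, a fold of 0.768 of knockout over control, and the highest was 0.26, of Tek, a fold of 1.20. A change of 1.5-fold in either direction, a mark picked for this description, lay outside the interval in all 10 members. The intervals rest on the same spread among RNA samples as the p-values, part of which may be technical. All 10 come from the same 6 arrays, on which the members varied together, so they are not independent. RMA, the method that made the values, compresses differences of dim clusters, so these bounds hold for the array values.

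**Figure D1:**
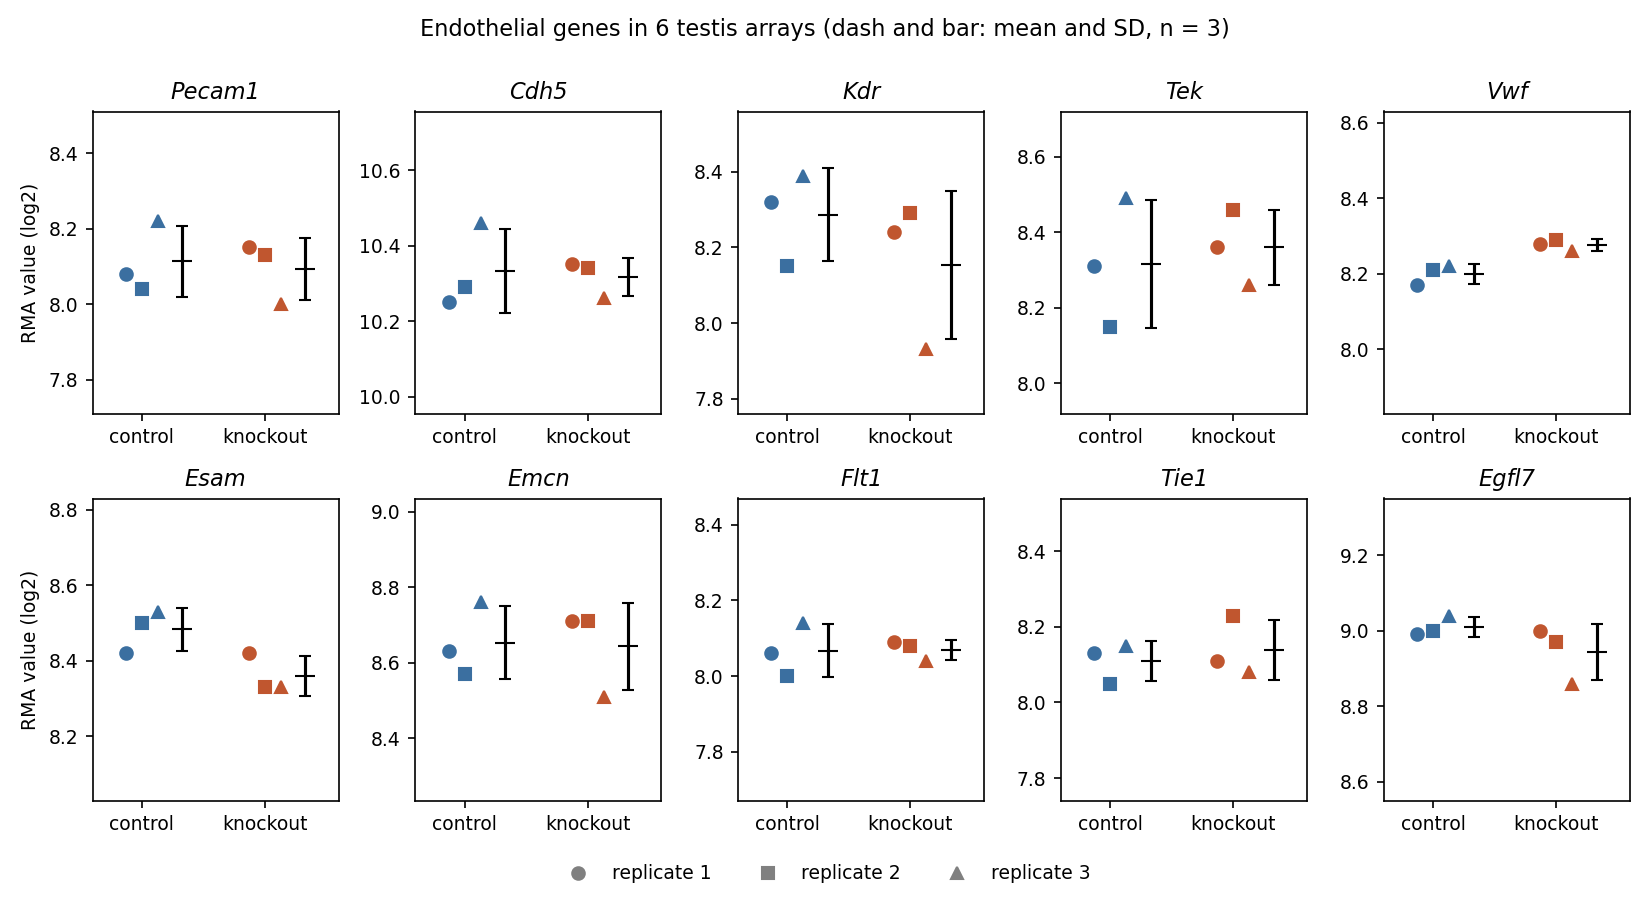
RMA values (log2 scale) of the 10 genes in each of 3 control and 3 knockout arrays, 1 panel per gene with the same span of values, with the mean and SD of each group beside the points. The groups overlap in every gene except Vwf, where the knockout values of 8.26 to 8.29 lie above the control values of 8.17 to 8.22.

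Of the VEGF receptors, Kdr had the widest spread of all 10 genes. Kdr (cluster 10530692, chromosome 5) read 8.32, 8.15 and 8.39 on the control arrays and 8.24, 8.29 and 7.93 on the knockout arrays. Knockout replicate 3 was the lowest of the 6, and the other two knockout arrays lay inside the control range. The means were 8.29 ± 0.12 and 8.15 ± 0.20 (SD, n = 3), a difference of -0.13 (SE 0.11, adjusted p = 0.707, limma). Without knockout replicate 3 the difference of Kdr was -0.022.

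Flt1, whose product also exists as a soluble VEGF trap, differed least of the 10. Flt1 (cluster 10535807, chromosome 5) read 8.06, 8.0 and 8.14 in control and 8.09, 8.08 and 8.04 in knockout arrays. The 3 knockout values lay within the control range. The difference was 0.0033 (SE 0.049, 95% interval -0.11 to 0.12, adjusted p = 0.987, limma), and its sign was not kept when arrays were weighted by quality (-0.0020) or without control replicate 2, knockout replicate 1 or knockout replicate 2 (-0.030 to -0.0017).

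Both angiopoietin receptors had values above and below the control mean in each group. Tek (cluster 10505954, chromosome 4) read 8.31, 8.15 and 8.49 in control and 8.36, 8.46 and 8.26 in knockout arrays. The knockout values again lay within the control range, and the difference was 0.043 (SE 0.092, adjusted p = 0.910, limma). Tie1, the orphan partner of TIE2, sits on the same chromosome (cluster 10515771) and read 8.13, 8.05 and 8.15 in control and 8.11, 8.23 and 8.08 in knockout arrays. Knockout replicate 2 was the highest of its 6 values and control replicate 2 the lowest. Its difference was 0.030 (SE 0.055, adjusted p = 0.891, limma).

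The 3 junction genes included the member with the smallest p. Esam, an immunoglobulin-family adhesion molecule of tight junctions that platelets also carry, read 8.42, 8.50 and 8.53 in control and 8.42, 8.33 and 8.33 in knockout arrays (cluster 10584317, chromosome 9). Knockout replicates 2 and 3 lay below every control array, while knockout replicate 1 was level with control replicate 1. The means were 8.48 ± 0.057 and 8.36 ± 0.052 (SD, n = 3), and the difference of -0.12 (SE 0.050, fold 0.918) had an unadjusted p of 0.0404 and an adjusted p of 0.447 in limma. Leaving out any 1 array kept it between -0.16 and -0.10, and the adjusted p between 0.385 and 0.680 over all settings.

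The other two adhesion genes showed no such offset. Cdh5, the cadherin of adherens junctions, read 10.25, 10.29 and 10.46 in control and 10.35, 10.34 and 10.26 in knockout arrays (cluster 10574438, chromosome 8). Pecam1, which platelets and leukocytes carry as well, read 8.08, 8.04 and 8.22 in control and 8.15, 8.13 and 8.0 in knockout arrays (cluster 10392221, chromosome 11). In both genes control replicate 3 was the highest array. The differences were -0.017 for Cdh5 (SE 0.064) and -0.020 for Pecam1 (SE 0.065), with adjusted p-values of 0.954 and 0.946 in limma. With the arrays centred on their medians Cdh5 came to 0.0033 and Pecam1 to 0.

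Vwf was the only member whose groups did not overlap. It encodes von Willebrand factor, the clotting protein that endothelial cells store and that megakaryocytes and platelets also hold. Vwf (cluster 10541910, chromosome 6) read 8.17, 8.21 and 8.22 in control and 8.28, 8.29 and 8.26 in knockout arrays. All 3 knockout arrays were above all control arrays, which was so in 6.73% of all clusters, and in 15.3% the groups were apart in either direction. The difference of 0.077 (SE 0.039, 1.06-fold) was small, had an unadjusted p of 0.0894 and did not pass (adjusted p = 0.538, limma), and leaving out any 1 array gave 0.062 to 0.087.

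Markers of platelets and megakaryocytes lay on the same side. All 4 measured of 6 listed exceeded their control mean, the median being 0.10, and none passed (smallest adjusted p 0.482, limma). Over all clusters 51.3% lay above the control mean. So did 10 of 10 macrophage and leukocyte genes and 7 of 8 Sertoli genes, against 1 of 10 germ cell genes and 1 of 5 myoid genes. Of the platelet markers, Ppbp was dim, with values from 5.31 to 5.76. Pf4, platelet factor 4, read 9.12, 8.95 and 9.05 in control and 9.28, 9.26 and 9.07 in knockout arrays. Itga2b, the platelet integrin subunit, read 7.52, 7.56 and 7.54 in control and 7.67, 7.58 and 7.60 in knockout arrays. The mean of the list ranged from 7.28 to 7.42 in control and from 7.35 to 7.49 in knockout arrays, so the groups overlapped. Their part in the result for Vwf was not tested.

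The remaining members are a secreted protein and a surface sialomucin. Egfl7, a matrix-bound factor that guides vessel tube formation, read 8.99, 9.0 and 9.04 in control and 9.0, 8.97 and 8.86 in knockout arrays (cluster 10470283, chromosome 2). Knockout replicate 3 was its lowest array, and knockout replicate 1 equalled control replicate 2. The difference was -0.067 (SE 0.050, adjusted p = 0.691, limma), and leaving out 1 array gave -0.095 to -0.025, the latter without knockout replicate 3. Emcn, endomucin, which marks capillaries and veins, read 8.63, 8.57 and 8.76 in control and 8.71, 8.71 and 8.51 in knockout arrays (cluster 10496359, chromosome 3). Both the highest and the lowest of its 6 values came from a replicate 3, the one of control and the other of knockout. Its difference was -0.010 (SE 0.075, adjusted p = 0.976, limma) and 0.010 with the arrays centred on their medians.

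**Figure D2:**
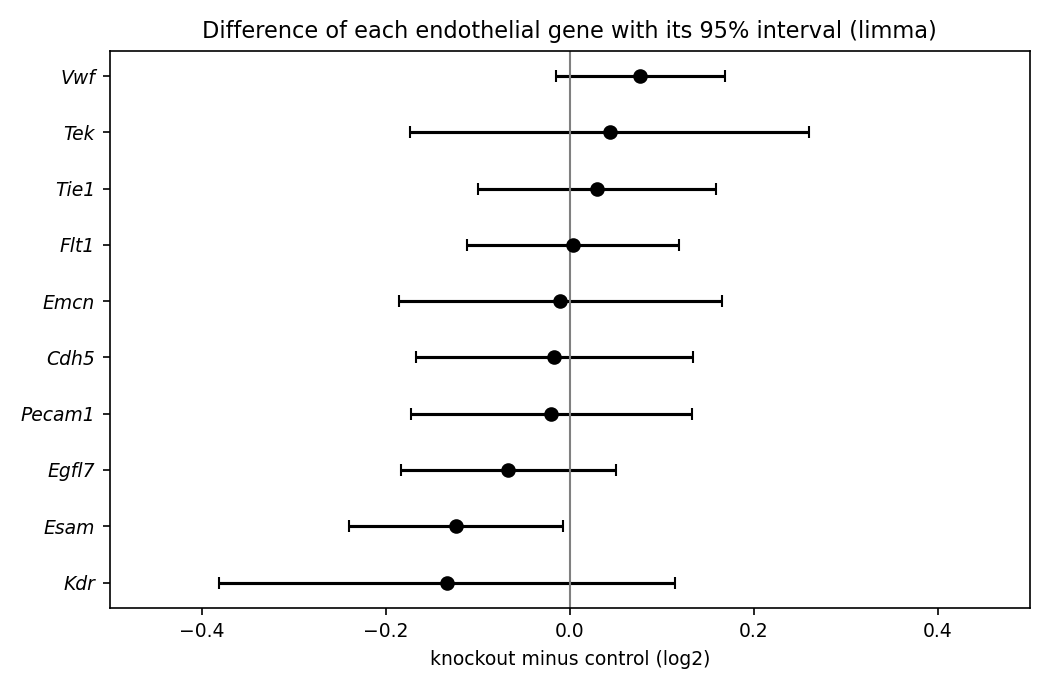
Difference of knockout minus control (log2 scale, points) with the 95% interval from limma (bars, 3 arrays per group), for the 10 genes in order of their difference. The intervals of 9 genes include 0, and that of Esam ends at -0.0071.

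Egfl7 also carries a microRNA. miR-126, the best-known endothelial microRNA, is made from an intron of Egfl7, and its gene lay inside the span of Egfl7 in the RefSeq table. The mature strand is shown with its seed, bases 2 to 8, in capitals (RefSeq, GRCm38.p6, chr2:26591402-26591423, plus strand).
mmu-miR-126a-3p: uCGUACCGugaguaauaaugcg
The cluster named Mir126a (10470296), which is outside the rule for named genes, read 3.77, 3.79 and 3.48 in control and 3.98, 3.51 and 3.63 in knockout arrays. The groups overlapped, with a difference of 0.027 (SE 0.13, adjusted p = 0.966, limma). These values were near the bottom of the table, whose lowest value was 2.19, and the array does not separate the mature microRNA from its precursor.

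The members varied together between arrays of the same genotype. Control replicate 3 was the highest of the 3 control arrays in all 10 genes, where it was so in 28.3% of all clusters. In 8 of the 10, all but Vwf and Tie1, it was the highest of all 6 arrays, against 12.3% of all clusters. Knockout replicate 3 was the lowest of the knockout arrays in 9 of the 10, with Esam tied, against 34.1% of all clusters. The mean over the 10 genes, relative to the control mean, was -0.021, -0.061 and 0.083 in control replicates 1, 2 and 3. It was 0.014, 0.026 and -0.10 in knockout replicates 1, 2 and 3. The highest and the lowest array were thus 1 of each genotype, and the spread within a genotype was wider than the difference between them.

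**Figure D3:**
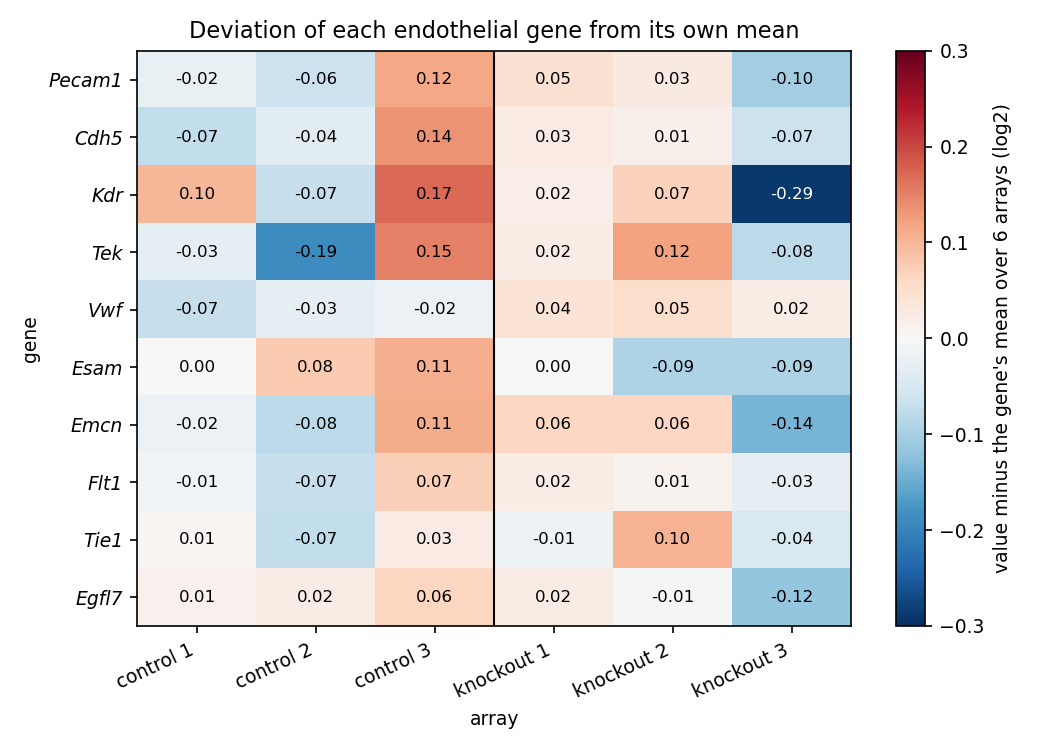
Each cell gives the value of 1 gene (row) on 1 array (column) minus that gene's mean over the 6 arrays, on the log2 scale, with control arrays left and knockout arrays right of the line. The column of control replicate 3 is positive in 9 of 10 genes and that of knockout replicate 3 is positive in 1 of 10, Vwf.

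Pairs of members were correlated over the 6 arrays, which all 45 pairs share. The median Pearson r was 0.604, from -0.565 between Esam and Vwf to 0.978 between Emcn and Pecam1, and 40 of the 45 pairs were above 0. Each group's own mean was then taken out, so that only the spread within genotypes was left. The median r over the pairs was then 0.701 and the mean 0.660, and 44 pairs were above 0. Over all pairs of clusters that mean was 0.0068. Pecam1 and Emcn followed the other members most closely (median r 0.841 and 0.826) and Vwf (0.189) and Esam (0.324) least. With 6 arrays these values are a description.

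The clusters nearest to the members' mean profile were ranked over the 6 arrays. Mest, an imprinted gene of mesenchyme, led with r = 0.996 and read 9.14, 9.04 and 9.37 in control and 9.22, 9.27 and 8.97 in knockout arrays. Trmt44 (r = 0.992), which encodes a transfer RNA methyltransferase, followed. Src (r = 0.984), a tyrosine kinase that acts downstream of VEGFR2 among many receptors, was the third. Saa4 (0.977), a serum amyloid protein, and Ndufaf6 (0.976), an assembly factor of the mitochondrial respiratory chain, came next. Their differences between the genotypes lay between -0.030 and 0.0033. Of 21779 clusters compared, 113 (0.519%) had an r above 0.9. Over 6 arrays unrelated clusters can also reach such values, so the ranking is a description. Whether these genes vary with the endothelial cells was not tested.

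Other genes of endothelial cells, and of the signals that act on them, were read from 6 lists with 53 genes, all measured by 1 cluster each. Some of these genes are not restricted to endothelial cells, so the counts describe the lists and not that cell type. In limma 0 passed the adjusted threshold, and at an unadjusted p under 0.05 there were 5 higher and 2 lower in the knockout, where 4.10% and 6.45% of all clusters were. Above the control mean lay 34, below it 17 and at it 2, and the median was 0.033.

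Among the VEGF ligands and co-receptors, 4 of 8 were above the control mean. Vegfd, a ligand of VEGFR3 that acts on lymphatic vessels, read 9.29, 9.19 and 9.29 in control and 9.42, 9.55 and 9.42 in knockout arrays. Its groups did not overlap, and the difference was 0.21 (SE 0.055, adjusted p = 0.340, limma). The co-receptor gene Nrp1, neuropilin 1, read 9.61, 9.57 and 9.74 in control and 9.86, 9.78 and 9.84 in knockout arrays, apart as well, with a difference of 0.19 (adjusted p = 0.367, limma). Vegfb, a ligand of VEGFR1, differed by -0.15 (SE 0.074, adjusted p = 0.527, limma) with overlapping groups. Of the angiopoietin genes, Angpt2, the antagonist released by endothelial cells, differed by 0.12 and Angpt1, the agonist, by -0.0033, and none of the 4 genes passed.

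Notch signalling sets arterial identity, and 3 of its 7 genes were above the control mean. Hey2, a Notch target of arteries, read 7.97, 7.98 and 7.95 in control and 7.70, 7.84 and 7.53 in knockout arrays. All 3 knockout arrays lay below the controls, as in 8.60% of all clusters, and the difference was -0.28 (SE 0.076, adjusted p = 0.347, limma). Dll4, the arterial Notch ligand, differed by 0.033 (SE 0.067).

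In the list of junction genes 4 of 6 were above the control mean. The smallest p belonged to Jam2 (0.16, SE 0.059, adjusted p = 0.409, limma), a junctional adhesion molecule that is not restricted to vessels, and it was apart between the groups. Pcdh12, VE-cadherin-2, differed by -0.027. Of 16 other surface genes 14 exceeded their control mean, the median being 0.047. The smallest p-values on each side were those of S1pr1, a sphingosine-1-phosphate receptor (0.13, SE 0.057, adjusted p = 0.482, limma), and Eng, endoglin (-0.080, SE 0.073, adjusted p = 0.745, limma).

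Of 12 transcription factor genes, 6 were above the control mean, 4 below it and 2 (Klf2 and Klf4) equal to it. Erg, an ETS factor that maintains endothelial identity, read 9.37, 9.19 and 9.35 in control and 9.13, 9.02 and 9.18 in knockout arrays. Its 3 knockout values lay below the lowest control value, by 0.01 in the closest pair, and the difference was -0.19 (SE 0.066, adjusted p = 0.393, limma). Fli1, a related ETS factor, differed by 0.0067 (SE 0.049). Lyl1, a factor of blood and endothelial cells, had the smallest p on the higher side (0.12, SE 0.052, adjusted p = 0.471, limma).

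**Figure D4:**
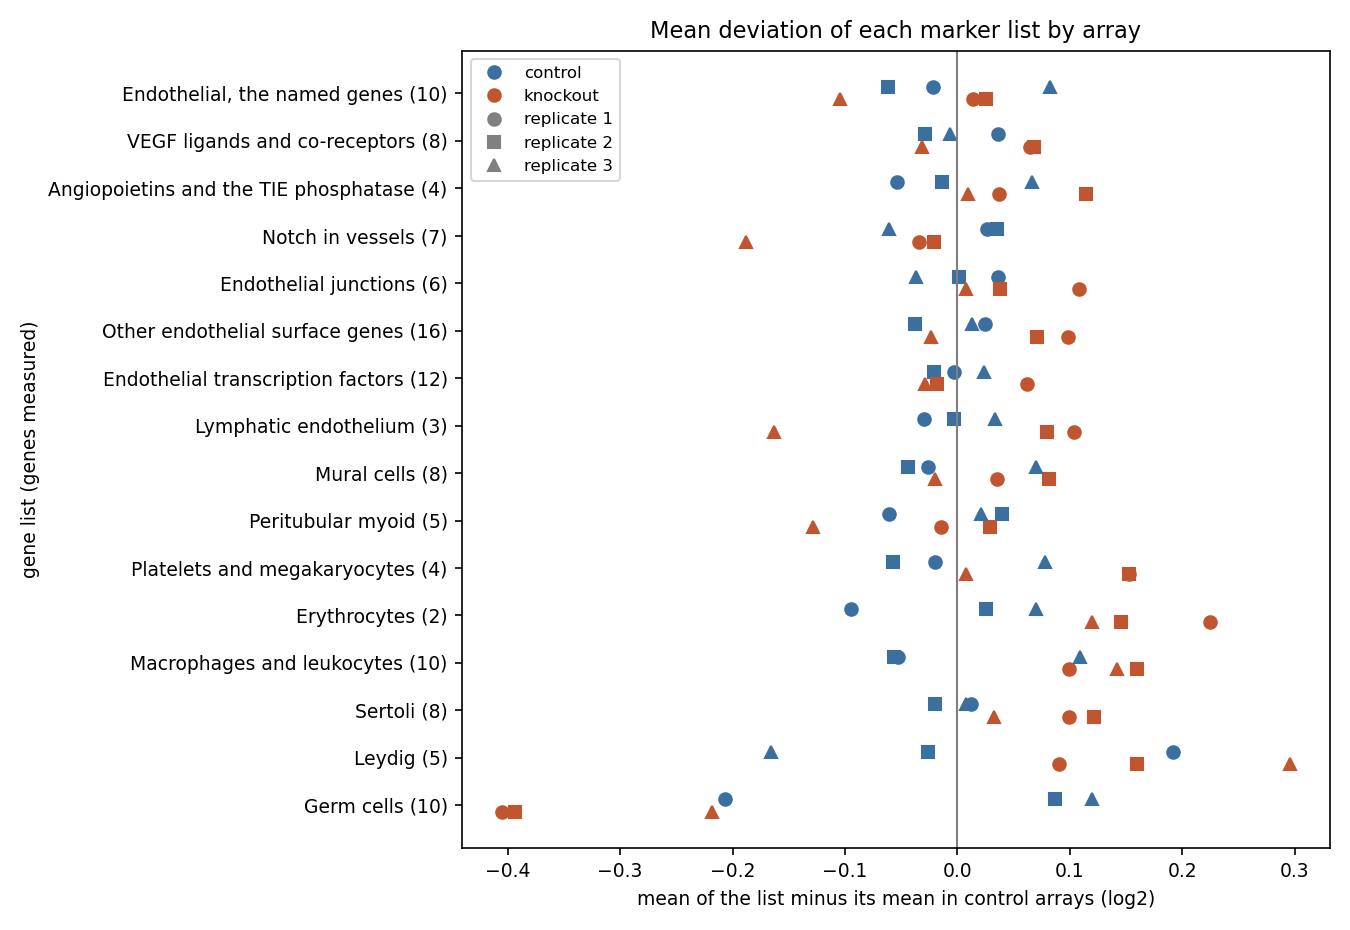
Mean of each marker list on each array minus its mean over the control arrays (log2 scale), with the number of genes measured in brackets, circles, squares and triangles for replicates 1, 2 and 3 and colours for the genotypes. In the endothelial row the knockout arrays (-0.10 to 0.026) span most of the range of the control arrays (-0.061 to 0.083), and in the germ cell row the knockout arrays lie at -0.41 to -0.22 and the control arrays at -0.21 to 0.12.

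Markers of other cells of the testis were measured beside the endothelial genes. Germ cell genes were lower, with 9 of 10 below the control mean, a median of -0.19 and 4 lower with separate groups, as in 8.60% of all clusters, though none passed (smallest adjusted p 0.374, limma). Tcp11, a gene of sperm function, differed by -0.74 and Dazl, a germ cell RNA-binding protein gene, by 0.0067. Ldhc (-0.75), Adam3 (-0.68) and Piwil1 (-0.67) lay near Tcp11, and the remaining genes of the list differed by -0.20 to 0.0067. The list mean relative to the control mean, which leans on the genes with large differences, was -0.21, 0.087 and 0.12 in the control replicates. It was -0.41, -0.39 and -0.22 in the knockout replicates. Control replicate 3 was the highest control here, as in the endothelial genes. Knockout replicate 3 was the highest knockout here and the lowest in the endothelial genes. Macrophage and leukocyte genes, whose cells share the space between tubules with the vessels, were all above their control mean, 10 of 10 (median 0.13, none past the threshold). Their mean in control replicate 3 was 0.11 above the control mean and lay within the range of the knockout arrays (0.099 to 0.16). Cx3cr1, a receptor of monocytes and macrophages, had the smallest p of these (0.16, SE 0.053, adjusted p = 0.390, limma).

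Cells that wrap vessels were closest in kind. Of 8 mural cell genes, which mark pericytes and vascular smooth muscle, 6 exceeded their control mean, the median being 0.020, and none passed (smallest adjusted p 0.555, limma). Their mean was highest among the controls in replicate 3 (0.070) and lowest among the knockouts in replicate 3 (-0.020). The 10 endothelial genes also had their highest control mean and their lowest knockout mean in replicate 3. So had the platelet and lymphatic lists (control replicate 3 at 0.078 and 0.033, knockout replicate 3 at 0.0075 and -0.16). The angiopoietin, transcription factor and erythrocyte lists did too (control replicate 3 at 0.067, 0.024 and 0.070, knockout replicate 3 at 0.0092, -0.029 and 0.12). Control replicate 3 was instead the lowest control in the Notch (-0.061), junction (-0.037) and Leydig lists (-0.17). In the VEGF and other surface lists control replicate 1 was the highest control (0.036 and 0.024). Knockout replicate 3 was still the lowest knockout in the Notch (-0.19), junction (0.0078), VEGF (-0.032) and other surface lists (-0.023). It was so too in the myoid (-0.13) and Sertoli lists (0.033), but the highest knockout in the Leydig (0.30) and germ cell lists (-0.22). In the macrophage list knockout replicate 1 was the lowest (0.099). Over the 53 genes of the other endothelial lists the mean of control replicate 3 (0.0011) lay below that of control replicate 1 (0.016). The mean of knockout replicate 3 over these genes (-0.042) was the lowest of the 6 arrays. Des, the muscle intermediate filament, differed by 0.15 and Rgs5, a pericyte marker, by -0.040. Of 3 lymphatic genes measured, Prox1, the master regulator, differed by 0.12 and Pdpn, podoplanin, by -0.11, with knockout replicate 3 at 10.39 against 10.90 and 10.87 on the other knockout arrays. Of 5 peritubular myoid genes 1 was above the control mean. The smallest p-values on each side were those of Tagln (-0.15) and Actg2 (0.027), both smooth muscle genes, and none passed.

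Of 8 Sertoli cell genes measured, 7 exceeded their control mean, led by Kitl (0.28, adjusted p = 0.235, limma), with Amh at -0.063. Of 5 Leydig cell genes 4 did. Hsd17b3 (-0.43, adjusted p = 0.292) and Cyp11a1 (0.37, adjusted p = 0.367) had the smallest p-values in limma on each side. The 2 measured erythrocyte genes, Alas2 (0.28) and Epb42 (0.050), did too, and none of these 3 lists had a member past the threshold. The part of these cell types in the values of the endothelial genes was not tested.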

How the data were processed

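The deposited values are RMA values on the log2 scale, 1 per transcript cluster and array, made by the authors in Affymetrix Expression Console (submitters' processing notes). Versions, probe annotation and build: not given in the sources used here. RMA gives the probe intensities of all arrays 1 distribution, which hides any change common to all transcripts. Detection calls were not used here.

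Of 35556 rows, the 21789 with 1 gene symbol were tested, and those with several (1621) or none (12146) were left out. Array medians ran from 8.08 to 8.10, the lowest correlation between arrays was 0.995, and at most 4.12% of values were identical between arrays. The number of arrays limits the precision. The targeted gene is not reported here, so the genotype labels were taken as given.

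The test was limma 3.58.1 in R 4.3.3 (lmFit, eBayes, no covariates, 4 residual and 3.24 prior degrees of freedom). Benjamini-Hochberg adjustment was over all tested clusters, with a threshold of 0.05. The fit was tried first on simulated data, with planted changes larger than any member difference and noise independent between clusters. That trial does not show how often differences as small as those of the members would be found. Members, lists and rules were chosen with earlier results of these data known. All members are named, from each other list the smallest p in each direction, and the 5 nearest profiles. Fli1, Klf2, Klf4, Nrp1, Itga2b, Ppbp, Epb42, Ldhc, Adam3, Piwil1 and Mir126a are named besides, after their values were seen. Ccl21a, Gp1ba, Gp1bb, Hba-a1, Hbb-b1, Rhox5, Insl3 and Lhcgr, and the promoters of Pecam1, Cdh5, Vwf and Esam, were not analysed here. Alternatives were another prior, a filter on dim clusters, all rows, 2 centrings, array weights, a replicate block, a threshold of 0.1 and each array left out.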

Additional observations from a re-analysis of the deposited data

How the results depend on the processing

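No member passed the threshold under any of the settings tried. None of the genes of the other endothelial lists did at an adjusted p of 0.05 (53 tested, 52 with dim clusters left out), a count not made at an adjusted p of 0.1. Members past the threshold stayed at 0 with the replicate block, whose smallest adjusted p among the 10 was 0.533 (limma). Same-numbered arrays deviated together in 2 pairs (correlations 0.166 and 0.170) and not in the third (-0.054). Differently numbered arrays gave correlations from -0.23 to 0.084. The labels do not say whether same-numbered arrays were paired, and these correlations cannot settle it. Of 130 member results under alternatives, 112 kept their direction, 15 reversed and 3 came to 0 (Pecam1 with median centring, Flt1 without control replicate 1 and Tie1 without control replicate 2). Kdr, Vwf, Esam and Egfl7 kept theirs throughout. With arrays centred on their medians, which moved the median of all clusters from 0.0033 to 0.023, Cdh5 was 0.0033 and Emcn 0.010, Pecam1 came to 0, and 6 members lay above the control mean in place of 4. With array weights Flt1 was -0.0020. Leaving out 1 array at a time, Pecam1 ranged from -0.057 to 0.033, Cdh5 from -0.058 to 0.047, Emcn from -0.052 to 0.057, Tek from -0.040 to 0.13, Flt1 from -0.030 to 0.040 and Tie1 from -0.015 to 0.060. The median over the members ranged from -0.046 without control replicate 2 to 0.042 without control replicate 3, and the number above the control mean from 1 (without control replicate 2 or knockout replicate 2) to 7 (without control replicate 3 or knockout replicate 3). Without control replicate 3, Pecam1 was 0.033, Cdh5 0.047 and Emcn 0.043, and without knockout replicate 3 they were 0.027, 0.012 and 0.057. Without control replicate 2, Tek was -0.040 and Flt1 -0.030. Without knockout replicate 2, Tek was -0.0067, Flt1 -0.0017 and Tie1 -0.015, and without knockout replicate 1 Flt1 was -0.0067.

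Over all clusters 3 passed. There were 7 with an intensity trend and robust prior, 6 at an adjusted p under 0.1, 0 with all rows of the table tested and 0 with the replicate block (3020 and 2288 at an unadjusted p under 0.05). Leaving out 1 array gave 0 to 52. It was 52 without control replicate 1, 1 without control replicate 2 and 0 without any other single array (1573 to 2377 at an unadjusted p under 0.05 in those cases). The causes were not tested. Signal over background is not known from these values.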
